A study of Mus musculus with 4 samples.

Results

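The genes described here are 10 that are widely used as readouts of macrophage activation. They are Arg1, Retnla, Chil3, Nos2, Mgl2, Ccl17, Ccl22, Il10, Hmox1 and Gpnmb, chosen by symbol, and all 10 were found among the 27998 genes listed for every library. They were followed in barcodes of single-cell libraries with at least 3 UMIs (unique molecular identifiers, one per captured RNA molecule) of Tyrobp and no UMI of Epcam. Tyrobp encodes the DAP12 signalling adaptor of myeloid and NK cells, and Epcam an epithelial adhesion molecule. Barcodes with fewer than 500 detected genes or over 10% mitochondrial UMIs were dropped. This Tyrobp gate then held 1885 of 2712 barcodes of tumour 1, 649 of 1780 of tumour 2 and 734 of 4836 of the 5 months library.

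All mice were females of mixed background in which both Trp53 and Brca1 were floxed and Rosa26 carried a YFP reporter (Trp53L/L;Brca1L/L;R26Y). Cre came from an adenovirus, Ad-K8-Cre, injected into the milk ducts. Its keratin 8 promoter aims recombination at luminal epithelium, so the leukocytes described here were not the cells targeted. The tumour libraries were made from DAPI-negative live cells of 2 tumour masses that arose after the injection. The 5 months library combined sorted YFP+ mammary epithelial cells with CD45+ leukocytes taken about 5 months after it. The labels give neither the mice behind each library nor the ratio of YFP+ to CD45+ cells, so sort and stage cannot be told apart, and the spread between tumours is over 2 libraries. A further library of YFP+ cells at 2 weeks held 5 barcodes in the gate and was not compared.

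Macrophages take up different programmes with the signals around them. In mice, IL-4 and IL-13 acting through STAT6 induce Arg1, Retnla, Chil3, Mgl2 and the chemokines Ccl17 and Ccl22, a pattern called alternative activation, whereas interferon-gamma and microbial products induce Nos2. Arginase 1 and the inducible nitric oxide synthase encoded by Nos2 compete for arginine: the first makes ornithine, from which polyamines and proline are built, and the second nitric oxide. Il10, Hmox1 and Gpnmb report other states, namely restraint of inflammation, handling of haem, and lysosomal or lipid load. Several of these genes are also made outside macrophages, Chil3 in neutrophils and monocytes and Ccl17 and Ccl22 in dendritic cells.

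The promoters of 6 of the 10 genes were in the RefSeq table used (GRCm38.p6). Those of 4 genes are shown, because the values below turn on them. Retnla and Ccl17 were lower in both tumours, Ccl22 is the neighbour of Ccl17 on chromosome 8, and for Chil3 the tumours lay on either side of the 5 months library. Each runs 5′ to 3′ from 250 bases before to 50 after the start site in that table, which for Retnla and Ccl22 lies inside the gene span given below. Retnla lies at chr16:48842359-48842658 on the plus strand, Ccl17 at chr8:94810203-94810502 on the plus strand, Ccl22 at chr8:94745434-94745733 on the plus strand and Chil3 at chr3:106167515-106167814 on the minus strand. Capitals mark matches on either strand to 3 motifs: a STAT6 element (TTC, any 4 bases, GAA), a C/EBP element (TTGC, any 2 bases, AA) and an NF-kB element (GGGA, any 4 bases, CC).
Retnla: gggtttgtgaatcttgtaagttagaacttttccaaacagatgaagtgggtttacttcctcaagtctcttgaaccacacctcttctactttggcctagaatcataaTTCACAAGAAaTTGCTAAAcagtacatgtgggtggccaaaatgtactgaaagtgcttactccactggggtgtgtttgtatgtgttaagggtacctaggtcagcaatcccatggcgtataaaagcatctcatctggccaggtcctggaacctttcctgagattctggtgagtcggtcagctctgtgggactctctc
Ccl17: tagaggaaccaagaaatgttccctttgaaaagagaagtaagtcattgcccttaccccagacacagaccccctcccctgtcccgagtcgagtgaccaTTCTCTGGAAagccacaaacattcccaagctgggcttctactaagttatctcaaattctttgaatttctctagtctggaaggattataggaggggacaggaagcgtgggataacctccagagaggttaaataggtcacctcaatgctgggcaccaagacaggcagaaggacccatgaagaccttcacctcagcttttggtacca
Ccl22: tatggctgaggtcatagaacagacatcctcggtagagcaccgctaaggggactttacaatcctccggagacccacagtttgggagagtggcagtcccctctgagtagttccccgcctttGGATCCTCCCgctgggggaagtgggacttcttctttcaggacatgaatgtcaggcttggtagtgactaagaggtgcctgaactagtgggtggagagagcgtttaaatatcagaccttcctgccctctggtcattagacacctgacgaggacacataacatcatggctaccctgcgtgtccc
Chil3: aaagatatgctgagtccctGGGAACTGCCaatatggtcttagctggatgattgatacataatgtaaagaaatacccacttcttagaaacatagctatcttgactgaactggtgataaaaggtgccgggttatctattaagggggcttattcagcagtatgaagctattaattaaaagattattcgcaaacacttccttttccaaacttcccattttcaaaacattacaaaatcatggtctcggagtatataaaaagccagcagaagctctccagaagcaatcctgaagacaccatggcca

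The STAT6 letters occurred in the Retnla window, with the first base at -145 from the start site, and in the Ccl17 window, at -154. They occurred in 6.95% of 32851 promoters of the same length. The C/EBP letters stood in the Retnla window at -134, and in 10.8% of all promoters. The NF-kB letters stood in the Ccl22 window at -131 and the Chil3 window at -231, and in 20.7% of all promoters. These are matches of letters and not measured sites, and no binding was assayed here. Gpnmb had no match to the 3 motifs in its window, and Mgl2 matched the NF-kB letters alone. Arg1, Nos2, Il10 and Hmox1 are named without a promoter.

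The gate was a mixture whose makeup differed between libraries. Barcodes with at least 3 UMIs over C1qa, C1qb and C1qc, the complement genes that mark tissue macrophages, made up 94.96% of the gate in tumour 1, 47.0% in tumour 2 and 19.3% at 5 months. They are called the C1q gate below. Among barcodes outside the C1q gate, a neutrophil class had at least 3 UMIs over Csf3r, Cxcr2, Retnlg, Ly6g and Mmp9. It took 0.318%, 25.4% and 0.409% of the Tyrobp gate in the same 3 libraries. C1q barcodes that also met this rule stayed in the C1q gate. Barcodes with at least 3 UMIs of dendritic markers took a further 0.955%, 2.93% and 28.9%. The macrophage label therefore held for most gate barcodes of tumour 1 and for a minority at 5 months. The classes beyond the C1q gate were defined after the data were seen.

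Marker levels moved with the groups. The 10 macrophage markers summed to 15342 and 7991 counts per 1e6 UMIs (CPM) in tumours 1 and 2, against 3353 CPM at 5 months. All 10 were higher in both tumours, against 38.8% of all genes tested. The 9 dendritic markers summed to 37.2 and 89.9 CPM in the tumours, against 994 CPM at 5 months. The 7 neutrophil markers summed to 1131 and 34094 CPM in tumours 1 and 2, against 2253 CPM at 5 months. T cell markers reached 319.9 CPM and NK markers 260.3 CPM at 5 months, against at most 45.3 and 5.76 CPM in the tumours. Within the C1q gate the macrophage sums were 16070, 14273 and 13341 CPM in tumour 1, tumour 2 and 5 months, and the C1q genes that define the gate belong to that list. Other lists stayed apart there by their sums. Monocyte markers summed to 1239 and 646 CPM in tumours 1 and 2, against 230.2 CPM at 5 months. Fn1, which is on that list, had no UMI in the C1q gate at 5 months. The monocyte genes went both ways in the C1q gate. Of 7, 3 were higher in both tumours and 3 lower in both, against 40.7% and 36.8% of all genes. Their median log2 difference was 0.30. Neutrophil markers summed to 752 and 1230.1 CPM in the tumours, against 18.2 CPM at 5 months. Dendritic markers summed to 17.3 and 44.98 CPM in the tumours, against 179 CPM at 5 months, and T cell markers to 8.54 and 40.3 CPM, against 188 CPM at 5 months. The level of each of the 10 genes is given in both gates, while for other genes the Tyrobp gate is meant unless the C1q gate is named. A further fit left neutrophil, dendritic and NK barcodes out of the Tyrobp gate. It kept 1485, 121 and 451 barcodes of tumour 1, tumour 2 and 5 months. That took far more of tumour 2 than the neutrophil and dendritic classes above hold. At least 3 UMIs of the 7 neutrophil markers stood in 80.9% of tumour 2 gate barcodes. In this fit Arg1 passed with a log2 difference of 6.12 (adjusted p = 0.042, edgeR) and Ccl17 with -3.27 (adjusted p = 0.0324, edgeR). The Ccl17 level left at 5 months rested on very few cells. Outside the dendritic class that library had 133 Ccl17 UMIs in 1 barcode and 4 in 1 C1q barcode. Ccl22 stood at -1.55 (adjusted p = 0.641, edgeR).

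Gate barcodes had a median of 6540 UMIs in tumour 1, 5773 in tumour 2 and 3360.5 at 5 months. Shares of barcodes with a UMI of a gene (positive barcodes) were therefore taken after thinning each barcode to 2000 UMIs. That left out 128 gate barcodes at 5 months and none in the tumours. Tumour 1 shared 7 barcode sequences with tumour 2 and 16 with the 5 months library, and tumour 2 shared 10 with it. At most 2 of these stood in the gates of both libraries of a pair. Of 8, 20 and 97 gate barcodes with exactly 3 Tyrobp UMIs in tumour 1, tumour 2 and 5 months, 1 in each library held Arg1. Of 37, 27 and 88 with 2 Tyrobp UMIs, just outside the gate, 6, 0 and 0 held it.

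Summed over the gate, no gene among 10911 tested passed an adjusted p of 0.05 between the 2 tumours and the 5 months library (0%; edgeR quasi-likelihood test, Benjamini-Hochberg). An unadjusted p under 0.05 was reached by 1173 genes, or 10.8%. The same was true of 9259 genes tested in the C1q gate (0%), with 857 or 9.26% at an unadjusted p under 0.05. Of the 10 genes, none passed in either gate. DESeq2 on the same sums called 177 of 10911 genes in the Tyrobp gate, among them Arg1, Mgl2, Ccl17 and Ccl22. In the C1q gate it called 48 of 9259, among them Arg1. With 1 library at 5 months the spread came from the 2 tumours alone, with 1 residual degree of freedom. At that unadjusted level Arg1, Nos2 and Gpnmb were higher in the tumours of the Tyrobp gate, against 5.32% of all genes, and Mgl2, Ccl17 and Ccl22 lower, against 5.43%. For the C1q gate these were Arg1 and Gpnmb, against 4.63% of all genes, and Mgl2, against 4.62%. Without overlap, Arg1, Nos2 and Gpnmb stood above the 5 months library in both tumours of the Tyrobp gate, and Retnla, Mgl2, Ccl17, Ccl22 and Il10 below it in both. Over all tested genes 38.8% were above in both tumours and 36% below in both. Nos2 was too low to be tested in the C1q gate. Of the other 9 genes, Arg1, Chil3, Ccl17 and Gpnmb were above in both tumours, against 40.7% of all genes, and Retnla, Mgl2, Ccl22 and Il10 below in both, against 36.8%. In that gate the Poisson intervals of Ccl17, Ccl22 and Gpnmb met between tumour 2 and 5 months. Sums over a gate cannot tell fewer producing cells from less RNA per cell, so shares stand beside them.

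**Figure D1:**
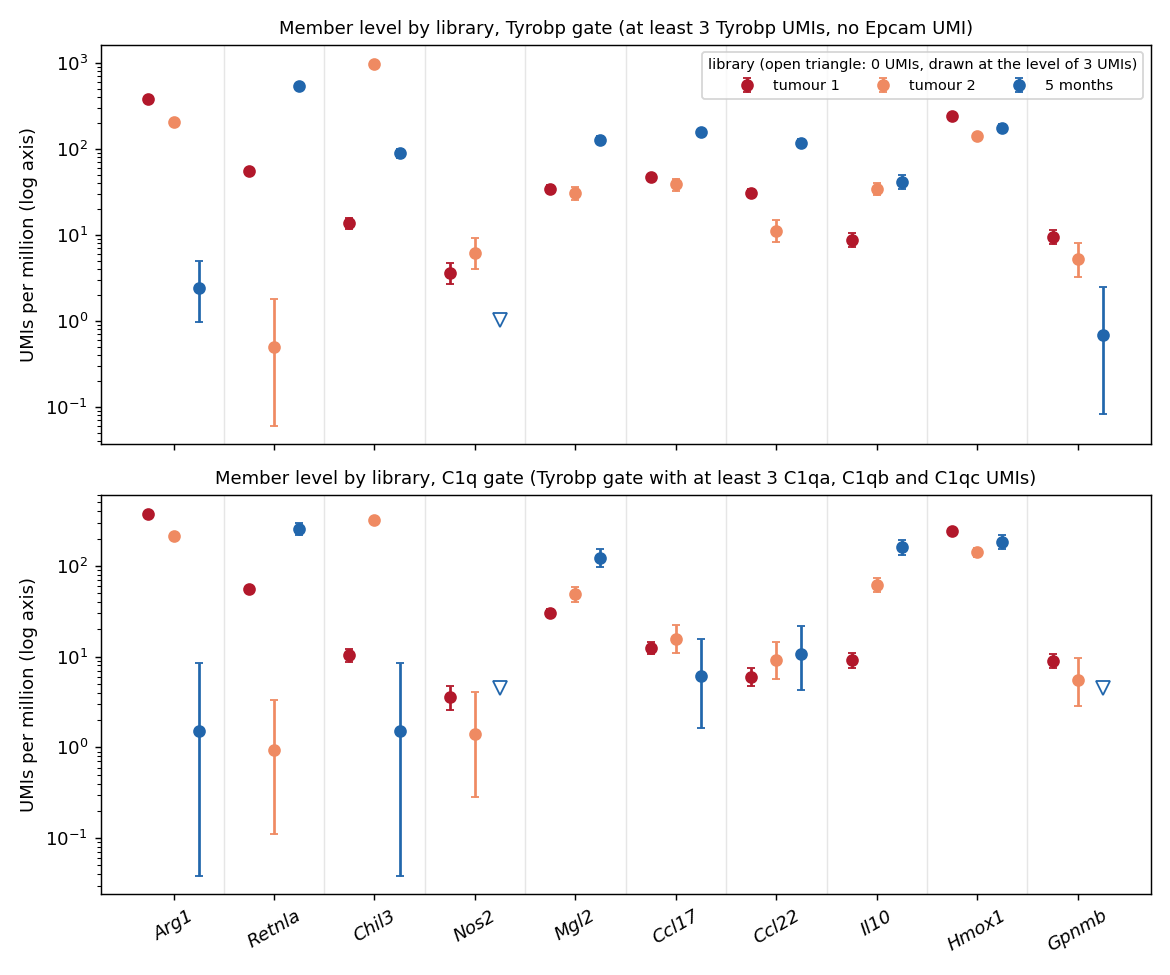
Level of each of the 10 genes by library, as CPM on a log axis, in the Tyrobp gate (upper panel) and in the C1q gate (lower panel). Points are single libraries and bars 95% Poisson intervals of the UMI count. Open triangles mark genes with no UMI, drawn at the level of 3 UMIs. Arg1 stood at 383 and 208 CPM in the tumours against 2.40 CPM at 5 months, whereas Hmox1 lay between 143 and 241 CPM in all 3 libraries.

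Arg1 (chromosome 10, 24915221 to 24927484, minus strand, GRCm38), the cytosolic arginase, was the gene among the 10 with the smallest p. Its level was 383 CPM (95% Poisson interval 372 to 393) in tumour 1 and 208 CPM (194 to 223) in tumour 2, against 2.40 CPM (0.964 to 4.94) at 5 months from 7 UMIs. The tumour libraries did not overlap the 5 months library. They stood 160-fold (77.4 to 397) and 86.9-fold (42.0 to 217) above it by counting error. The log2 difference was 6.88 with a standard error of 0.77 and an adjusted p of 0.256 (edgeR, 2 tumours against 1 library). Arg1 in the C1q gate had 371 and 211 CPM in the tumours, against 1.51 CPM at 5 months from 1 UMI. Those ratios were 245 (95% interval 44.0 to 9688) and 139 (24.8 to 5502) by counting error, and the log2 difference was 7.48 with an adjusted p of 0.425 in edgeR.

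After thinning, Arg1 was found in 23.6% of gate barcodes of tumour 1 (exact binomial 95% interval 21.7 to 25.6) and 10.9% of tumour 2 (8.64 to 13.6), against 0.33% at 5 months (0.0400 to 1.19). Unthinned, the shares were 33.3% and 15.3% in the tumours, against 0.681% at 5 months. Arg1 was spread over many barcodes in tumour 1, whose 10 highest held 10.7% of its UMIs, and over fewer in tumour 2, where they held 46.5%. T cell barcodes (Cd3 genes, no Tyrobp or Epcam) gave a measure of free RNA: Arg1 was found in 0 of 20 in tumour 1, which allows up to 15%, and in 0.781% of 128 in tumour 2. Their median depths were 4322 and 3195 UMIs before thinning.

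The other enzyme that uses arginine was low. Nos2 (chromosome 11, 78920787 to 78960254) had 3.62 CPM in tumour 1 and 6.26 CPM in tumour 2, from 49 and 25 UMIs, and no UMI at 5 months. Set against a floor of 3 UMIs, or 1.03 CPM, it was at least 3.52-fold and 6.09-fold higher in the tumours (adjusted p = 0.341, edgeR). It was sparse, in 0.477% and 1.23% of thinned barcodes of tumours 1 and 2 and in 0 of 606 at 5 months, which allows up to 0.495%. The barcodes that carried it differed between tumours. The C1q gate held 93.9% of Nos2 UMIs in tumour 1 and 12.0% in tumour 2, where the neutrophil class held 60.0%. C1q barcodes were 94.96% and 47.0% of the gate in tumours 1 and 2, and the neutrophil class 25.4% in tumour 2. The 5 months floor in the C1q gate of 4.54 CPM was above both tumours (3.57 and 1.39 CPM), so no difference was detectable at that depth.

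Of 15 genes of arginine use and polyamine synthesis, Arg1, Arg2 and Nos2 among them, 0 passed in either direction, with a median log2 difference of -0.34, against 0.06 over all genes tested. Of the 15, 5 were higher in both tumours, Arg1 and Nos2 included, and 9 lower in both, against 38.8% and 36% of all genes. Of 14 tested in the C1q gate, 5 were higher in both and 7 lower in both, against 40.7% and 36.8% of all genes. Their median was -0.07. Slc7a2, a cationic amino acid transporter that brings arginine into macrophages, had 61.2 and 27.5 CPM in the tumours, against 4.79 CPM at 5 months. Its C1q-gate levels were 61.9 and 37.1 CPM in the tumours, against 9.09 CPM at 5 months. Slc7a1, the more widely used transporter, went the other way, with 12.0 and 14.3 CPM in the tumours against 47.6 CPM at 5 months. Odc1, which turns ornithine into putrescine, had 72.6 and 84.1 CPM in the tumours, against 153 CPM at 5 months. Arg2, the mitochondrial arginase, had 15.7 and 103 CPM in tumours 1 and 2, against 22.6 CPM at 5 months, so the tumours lay on either side.

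Retnla and Chil3 encode secreted proteins, Relm-alpha and the chitinase-like Ym1, and they split the libraries in opposite ways. Retnla (chromosome 16, 48842551 to 48844461) had 55.3 CPM in tumour 1 and 0.501 CPM in tumour 2, from 2 UMIs, against 549 CPM at 5 months. Both tumours were lower, and tumour 2 held almost none. The log2 difference was -4.33 with a standard error of 1.86 (adjusted p = 0.492, edgeR). The levels in the C1q gate were 55.5 and 0.927 CPM in the tumours, against 256 CPM at 5 months. The C1q-gate log2 difference of -3.17 turned to 1.79 with at least 6 Tyrobp UMIs. The tumour 1 level rested on 2 barcodes of 347 and 237 UMIs, which held 78.1% of its Retnla. At 5 months the 10 highest barcodes held 55.5%, and positive barcodes had a median of 25.5 UMIs.

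Retnla was in 1.17% of thinned barcodes of tumour 1 and 0 of 649 of tumour 2, which allows up to 0.462%, against 7.10% at 5 months. T cell barcodes of the 5 months library held it in 0.778%. The C1q gate contained 10.5% of Retnla UMIs at 5 months, the dendritic class 21.2% and the remaining barcodes 68.2%. Retnla-positive barcodes at 5 months had a mean of 5.09 macrophage-marker UMIs per 2000, against 6.98 in Retnla-negative ones. For dendritic markers the means were 1.05 and 2.39, and for monocyte markers 2.07 and 3.36. No one of these 3 lists was higher in the barcodes with Retnla. Mgl2 was: it was found in 37.2% of the 43 Retnla-positive barcodes, against 9.41% of the gate.

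Chil3 (chromosome 3, 106147554 to 106167564, minus strand) had 13.7 CPM in tumour 1 and 978 CPM in tumour 2, against 89.7 CPM at 5 months. The tumours stood on either side of the 5 months library, and tumour 2 carried the difference: the log2 value was 2.42 with a standard error of 2.30 (adjusted p = 0.730, edgeR) and -2.77 without tumour 2. It was in 0.796% of thinned barcodes of tumour 1 and 35.9% of tumour 2, against 6.44% at 5 months. Epcam barcodes of tumour 2 without Tyrobp held it in 0.313%, and T cell barcodes in 1.56%.

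Neutrophil markers moved with Chil3 within every library. Chil3-positive barcodes had a mean of 105 neutrophil-marker UMIs per 2000 in tumour 1, 162 in tumour 2 and 58.2 at 5 months, against 1.27, 78.5 and 1.36 in Chil3-negative barcodes of the same libraries. The neutrophil means rested on few barcodes in tumour 1 and at 5 months: 20%, 51.5% and 12.8% of Chil3-positive barcodes reached 3 neutrophil-marker UMIs in tumour 1, tumour 2 and 5 months. In Chil3-negative barcodes 3.37%, 33.7% and 0.353% did. Monocyte markers moved with it too, at 5.20, 4.73 and 10.8 UMIs per 2000 in Chil3-positive barcodes of tumour 1, tumour 2 and 5 months, against 2.39, 1.502 and 2.74 in Chil3-negative ones. Of the Chil3-positive barcodes 66.7%, 59.2% and 87.2% reached 3 monocyte-marker UMIs. The C1q gate of tumour 2 held 17.8% of its Chil3 UMIs, and its level there was 322 CPM. Tumour 1 had 10.3 CPM in that gate, and the 5 months library 1.51 CPM from 1 UMI. Of the 133 Chil3 UMIs in the C1q gate of tumour 1, 110 came from 1 barcode. In tumour 2 the neutrophil class held 16.9% of Chil3 UMIs, at 902 CPM. The gate barcodes outside the C1q, neutrophil and dendritic classes held 64.4% there, at 2651 CPM. At 5 months the neutrophil class held 13.7%, the dendritic class 34.7% and the remaining barcodes 51.1%. Retnlg, a paralogue of Retnla typical of neutrophils, had 20.9 and 1881 CPM in tumours 1 and 2, against 71.9 CPM at 5 months. Chil4, a near-identical relative of Chil3, had no UMI in the gate, and reads that fit both genes may be missing from the counts.

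Mgl2 (chromosome 11, 70130329 to 70137550), the galactose-type lectin CD301b of macrophages and some dendritic cells, had 34.7 CPM in tumour 1 and 30.5 CPM in tumour 2, against 127 CPM at 5 months. The tumours lay close together and apart from the 5 months library. The log2 difference was -2.01 with a standard error of 0.36 (adjusted p = 0.293, edgeR). It kept its direction in the C1q gate, with 30.3 and 48.7 CPM in the tumours against 123 CPM at 5 months. Its thinned shares were 4.99% and 3.70% in the tumours, against 9.41% at 5 months. C1q-gate barcodes held 83.2% and 86.1% of Mgl2 UMIs in tumours 1 and 2, against 21.8% at 5 months, where the dendritic class held 53.1%. The classes differed in size: C1q barcodes were 94.96%, 47.0% and 19.3% of the gate in tumour 1, tumour 2 and 5 months. By level, Mgl2 had 351, 19.4 and 191 CPM in the dendritic class of the same libraries. The first 2 values came from 18 and 19 barcodes. Clec10a, the paralogue of Mgl2, had 6.43 and 7.26 CPM in the tumours, against 33.6 CPM at 5 months.

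Ccl17 and Ccl22 encode ligands of Ccr4, a chemokine receptor of T cells. Ccl17 (chromosome 8, 94810453 to 94812036) had 47.9 CPM in tumour 1 and 38.8 CPM in tumour 2, against 158 CPM at 5 months, a log2 difference of -1.91 with a standard error of 0.37 (adjusted p = 0.293, edgeR). Ccl22 (chromosome 8, 94745590 to 94751699) had 30.9 and 11.3 CPM in the tumours, against 118 CPM at 5 months, a log2 difference of -2.51 with a standard error of 0.64 (adjusted p = 0.351). Both genes were lower in both tumours of the Tyrobp gate. For Ccl17 that rested on leaving out barcodes with Epcam: with Epcam not used, its log2 difference was -0.57 (adjusted p = 0.763, edgeR). Ccl17 did not keep that direction in the C1q gate: it had 12.5 and 15.8 CPM in the tumours and 6.06 CPM at 5 months from 4 UMIs, a log2 difference of 1.11. Ccl22 had 5.98 and 9.27 CPM there, against 10.6 CPM at 5 months from 7 UMIs, and its log2 difference there turned to 2.06 with at least 6 Tyrobp UMIs. Neither passed in that gate (adjusted p = 0.603 and 0.772, edgeR).

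Few barcodes made most of each chemokine. The 10 highest barcodes held 94.9%, 90.3% and 92.0% of Ccl17 UMIs in tumour 1, tumour 2 and 5 months. For Ccl22 the 10 highest held 87.6%, 91.1% and 60.8%, so it was less concentrated at 5 months. Ccl17 was in 0.955% and 1.69% of thinned barcodes of the tumours, against 3.14% at 5 months, and Ccl22 in 0.955% and 1.39%, against 6.27%. Dendritic-class barcodes held 73.0%, 32.9% and 70.3% of Ccl17 in tumour 1, tumour 2 and 5 months, and 81.3%, 46.7% and 93.9% of Ccl22. In tumour 2 the gate barcodes outside the C1q, neutrophil and dendritic classes held more Ccl17 than the dendritic class did, at 43.2%. The chemokines shared barcodes: Ccl22 was in 38.9% of Ccl17-positive barcodes of tumour 1, 27.3% of tumour 2 and 63.2% of the 5 months library. Ccr4 itself had no UMI in the gate of tumour 1, 1.502 CPM in tumour 2 and 2.05 CPM at 5 months.

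The requirement for no Epcam UMI bore on Ccl17. Barcodes with at least 3 Tyrobp UMIs and an Epcam UMI numbered 150, 155 and 72 in tumour 1, tumour 2 and 5 months. They held 35.0%, 80.0% and 16.8% of all Ccl17 UMIs in the kept barcodes of their library. Ccl17 stood there at 168 and 534 CPM in tumours 1 and 2, against 273 CPM at 5 months, so tumour 2 was the highest of the 3. Their dendritic markers summed to 137 and 148 CPM in the tumours and 1112 CPM at 5 months. Their epithelial markers summed to 3680 and 4235 CPM in the tumours and 3857 CPM at 5 months. Whether single cells or pairs of cells lie behind these barcodes was not tested.

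**Figure D2:**
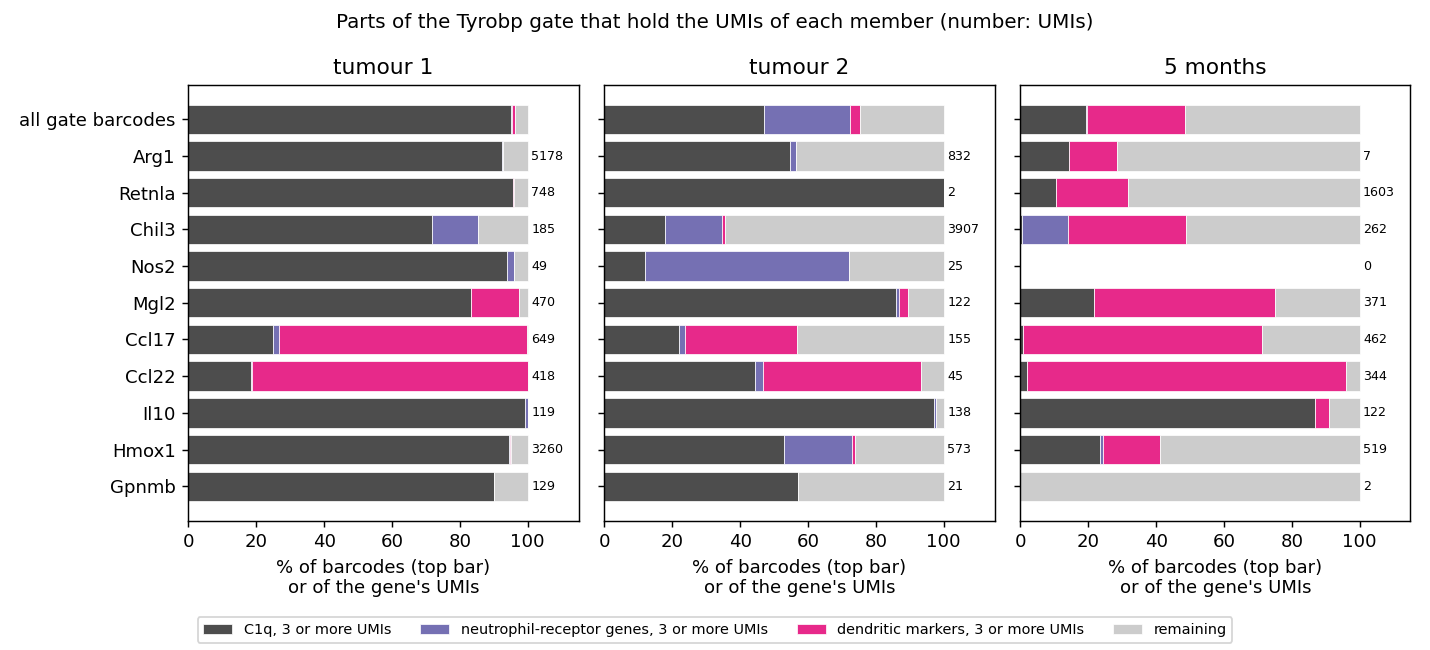
Distribution of each gene's UMIs over 4 classes of Tyrobp-gate barcodes, in percent, with the UMI count at the right of each bar. Panels are tumour 1, tumour 2 and 5 months, and the top bar gives the classes' shares of all gate barcodes. Il10 UMIs lay mostly in C1q barcodes of every library, Ccl22 UMIs mostly in dendritic-class barcodes in tumour 1 and at 5 months, and Chil3 UMIs in other classes in tumour 2.

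Il10 (chromosome 1, 131019845 to 131024974), the cytokine that restrains macrophage and T cell responses, had 8.79 CPM in tumour 1 and 34.5 CPM in tumour 2, against 41.8 CPM at 5 months. The log2 difference was -1.02 with a standard error of 0.84 (adjusted p = 0.688, edgeR). Within the gate it was the gene of the 10 bound most closely to C1q barcodes, apart from the 2 Retnla UMIs of tumour 2. They held 99.2%, 97.1% and 86.9% of its gate UMIs in tumour 1, tumour 2 and 5 months. C1q barcodes were 94.96%, 47.0% and 19.3% of the gate there. The gate itself held 88.1%, 67.3% and 40.4% of the Il10 UMIs in the kept barcodes of these libraries. Within the C1q gate the libraries stood apart, at 9.16 and 62.1 CPM in the tumours, against 161 CPM at 5 months. There the log2 difference was -2.33 with a standard error of 1.06 (adjusted p = 0.567, edgeR). Thinned C1q-gate shares were 0.838% in tumour 1 and 4.59% in tumour 2, against 12.98% at 5 months (exact interval 7.74 to 19.96). T cell barcodes held Il10 as well, in 2.46% at 5 months, a cell type that makes it.

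Among 15 genes of IL-10 and chemokine signalling, with Il10, Ccl17 and Ccl22 among them, 12 were tested and 0 passed in either direction, with a median log2 difference of -0.50. In the C1q gate 0 of 11 passed, with a median of -0.05. The ligands that induce alternative activation were at or near the floor: Il4 and Il13 had no UMI in the gate of tumour 1, and 0.250 and 0.501 CPM in tumour 2. At 5 months Il4 had 0.342 CPM and Il13 no UMI. Il4ra, their shared receptor chain, had 96.9 and 100.4 CPM in the tumours, against 82.2 CPM at 5 months, and Stat6 had 23.7 and 37.5 CPM in the tumours, against 24.7 CPM at 5 months.

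Hmox1 (chromosome 8, 75093621 to 75100589), haem oxygenase 1, which breaks haem down to biliverdin, iron and carbon monoxide, had the log2 difference nearest 0 of the 10 in the Tyrobp gate. Its levels were 241 CPM in tumour 1 and 143 CPM in tumour 2, against 178 CPM at 5 months. The tumours lay on either side of the 5 months library, with a log2 difference of 0.06 and a standard error of 0.47 (adjusted p = 0.971, edgeR). That sign changed without tumour 1, to -0.35. Its C1q-gate levels were 239 and 140 CPM in the tumours, against 185 CPM at 5 months. Thinned shares were 23.1% and 19.4% in the tumours, against 18.2% at 5 months. Epcam barcodes carried it too, in 5.56% and 4.70% of thinned barcodes in the tumours and 11.9% at 5 months.

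Of 15 genes of haem, iron and oxidative stress handling, Hmox1 included, 0 passed in either direction, 9 were higher in both tumours and 2 lower in both, against 38.8% and 36% of all genes. Of 13 tested in the C1q gate, 5 were higher in both and 5 lower in both, against 40.7% and 36.8%. Their median log2 difference was 0.73 in the Tyrobp gate and -0.04 in the C1q gate. Srxn1, a target of the transcription factor NRF2 that reduces oxidised peroxiredoxins, had 136 and 80.6 CPM in the tumours, against 26.4 CPM at 5 months. Fth1, the heavy chain of the iron store ferritin, had 33934 and 38075 CPM in the tumours, against 14110 CPM at 5 months.

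Gpnmb (chromosome 6, 49036546 to 49070929), a transmembrane glycoprotein of lysosome-rich and lipid-laden macrophages, was sparse. It had 9.53 CPM in tumour 1 and 5.26 CPM in tumour 2, against 0.685 CPM at 5 months from 2 UMIs of 1 barcode. The ratios to 5 months were 13.9 (95% interval 3.77 to 116) and 7.68 (1.88 to 67.5) by counting error, with an adjusted p of 0.362 (edgeR). In the C1q gate the tumours had 9.004 and 5.56 CPM and the 5 months library no UMI, whose floor was 4.54 CPM, so the tumours were at least 1.98-fold and 1.22-fold higher. It was in 0.849% and 0.924% of thinned barcodes of the tumours, against 0.165% at 5 months. Of the 17 genes of lipid and lysosome handling, Gpnmb included, 0 passed in either direction, 12 were higher in both tumours and 3 lower in both, against 38.8% and 36% of all genes. The C1q gate had 8 higher in both and 7 lower in both, against 40.7% and 36.8%. Their median log2 difference was 0.91 in the Tyrobp gate and 0.32 in the C1q gate. Spp1, the secreted phosphoprotein osteopontin, had 4685 and 906 CPM in the tumours, against 105 CPM at 5 months. Trem2, a lipid receptor that signals through Tyrobp, had 373 and 237 CPM in the tumours, against 81.5 CPM at 5 months.

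**Figure D3:**
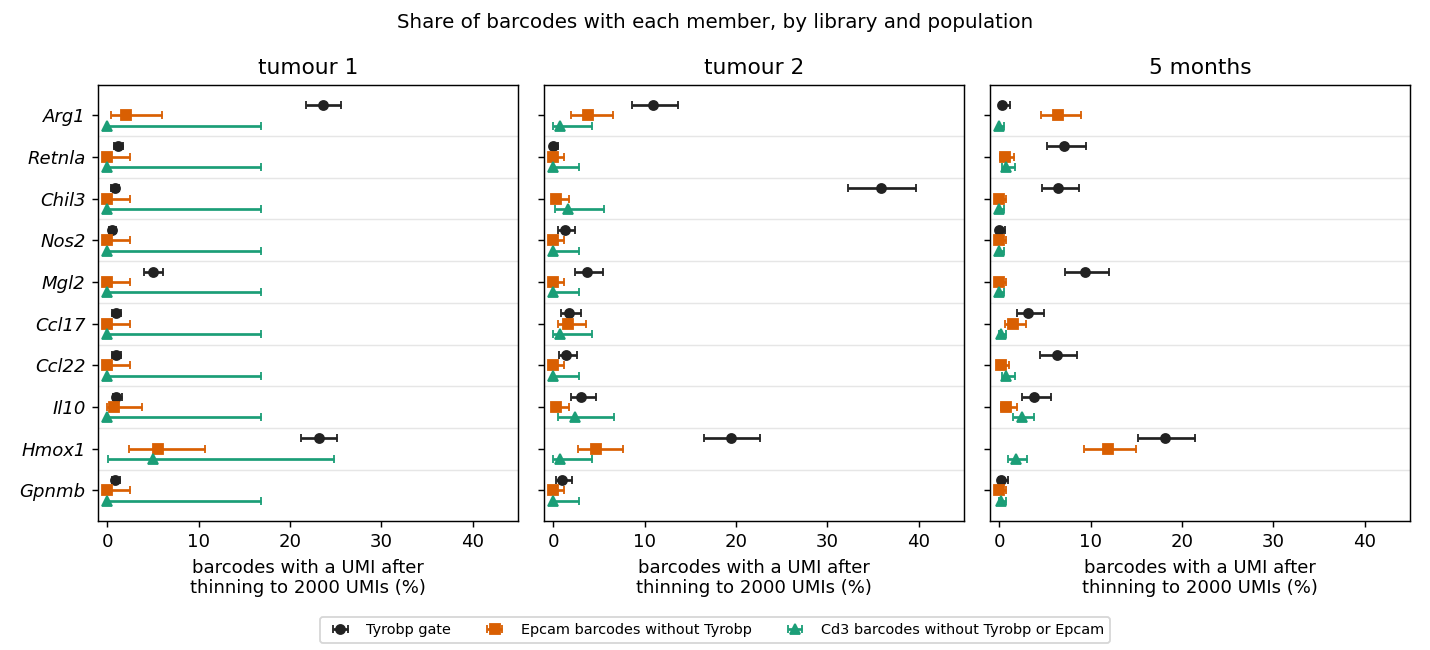
Share of barcodes with at least 1 UMI of each gene after thinning to 2000 UMIs, with exact binomial 95% intervals, in tumour 1, tumour 2 and 5 months. Circles are the Tyrobp gate, squares Epcam barcodes without Tyrobp and triangles T cell (Cd3) barcodes without either. In the gate Arg1 reached 23.6% in tumour 1 and Chil3 35.9% in tumour 2, while at 5 months the Arg1 share was 0.33% in the gate, lower than the 6.44% in Epcam barcodes.

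Between tumours, 1 library each and so with no test, 612 of 10911 genes (5.61%) differed by 2-fold or more. The rule added 1 CPM to each level and asked for 20 CPM or more in the higher tumour. Of the 10 genes, Retnla and Ccl22 were higher in tumour 1 by that rule, where 2.42% of all genes were. Chil3 and Il10 were higher in tumour 2, where 3.19% of all genes were. Arg1 was 1.84-fold and Hmox1 1.68-fold higher in tumour 1 and fell short of the rule. The C1q-gate ratios of tumour 1 to tumour 2 were 0.0320 for Chil3 and 0.147 for Il10. Ccl22 turned round there, at 0.645 from 77 and 20 UMIs. Each tumour is a single library, so tumour and library cannot be told apart.

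Co-detection with Arg1 was followed in 445 Arg1-positive and 1440 Arg1-negative thinned barcodes of tumour 1, and 71 and 578 of tumour 2. The 5 months library had 2 Arg1-positive barcodes and was left out. Hmox1 was in 31.7% of Arg1-positive barcodes of tumour 1 (27.4 to 36.2), against 20.5% of Arg1-negative ones (18.4 to 22.7). In tumour 2 the shares were 19.7% (11.2 to 30.9) and 19.4% (16.2 to 22.8), so the gap was larger in tumour 1 by value, and that difference was not tested. Chil3 was in 47.9% of Arg1-positive barcodes of tumour 2 (35.9 to 60.1), against 34.4% of Arg1-negative ones (30.6 to 38.5), and the intervals met. In tumour 1 Nos2 was in 1.57% of Arg1-positive barcodes, against 0.139% of Arg1-negative ones, from 7 and 2 barcodes. Gpnmb was in 2.25% of Arg1-positive barcodes there, against 0.417%.

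Other genes were found less with Arg1 than without it in the Tyrobp gate of both tumours by value. Ccl17 was in none of the Arg1-positive barcodes of tumour 1, which allows up to 0.674%, or of tumour 2, which allows up to 4.23%. In Arg1-negative barcodes it was in 1.25% and 1.90%. Il10 was likewise in none, against 1.32% and 3.46% of Arg1-negative barcodes. These counts of 0 belong to 1 thinning draw: a separate draw of the C1q gate of tumour 1 had Ccl17 in 2 of 402 Arg1-positive barcodes (0.498%), against 0.432% of Arg1-negative ones. Il10 was in 0.249% of Arg1-positive barcodes in that draw, against 1.01% of Arg1-negative ones. Mgl2 was in 3.37% and 1.41% of Arg1-positive barcodes of tumours 1 and 2, against 5.49% and 3.98%. In all, 4 of the 9 other genes had the higher share in Arg1-positive barcodes of both tumours, and 1 of 9 did in the C1q gate. Cells of 1 library are not replicates, so these are descriptions of each library. Shares are low for most of these genes, and thinning at other depths moved the count.

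**Figure D4:**
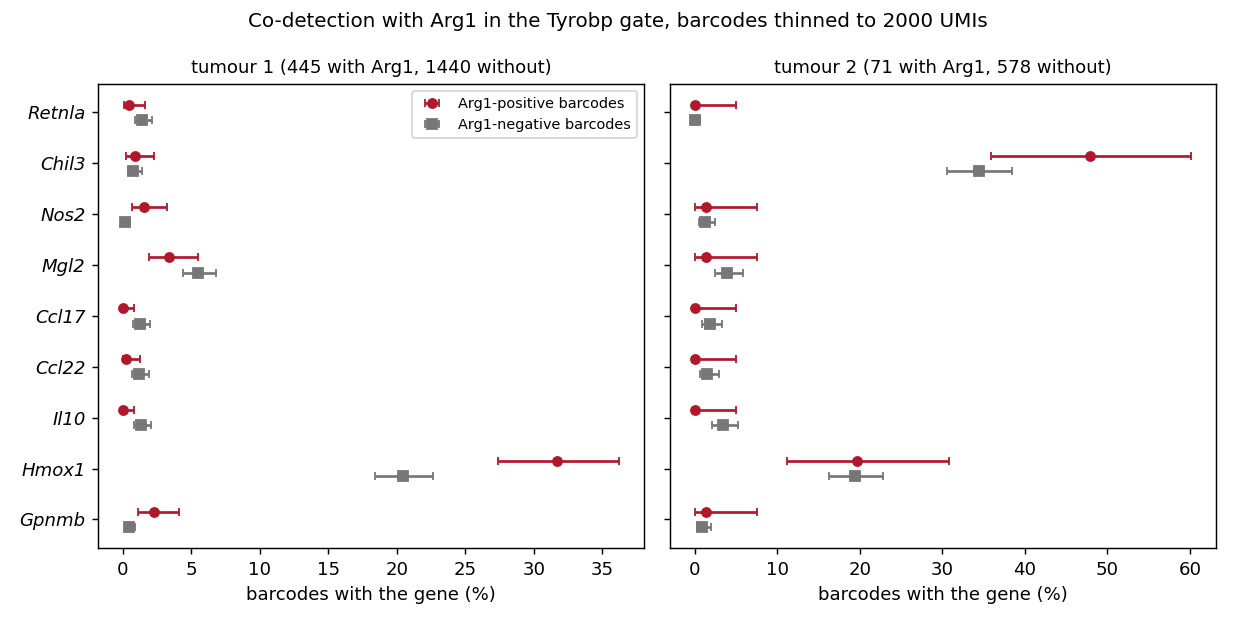
Share of Tyrobp-gate barcodes with each of the 9 other genes, split by whether Arg1 was detected, in tumour 1 (left) and tumour 2 (right), after thinning to 2000 UMIs. Circles are Arg1-positive and squares Arg1-negative barcodes, with exact binomial 95% intervals. Hmox1 stood at 31.7% with Arg1 and 20.5% without it in tumour 1, while in tumour 2 the values were 19.7% and 19.4%.

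Arg1-positive barcodes also carried more of some marker lists than Arg1-negative ones of the same tumour. Monocyte-marker UMIs per 2000 averaged 4.41 with Arg1 and 1.80 without it in tumour 1, and 4.56 and 2.43 in tumour 2. That list holds Fn1, the gene that followed Arg1 most closely below, and no mean without Fn1 was taken. Hypoxia and glycolysis genes averaged 11.1 and 5.89 in tumour 1, and 12.1 and 8.25 in tumour 2. Macrophage markers averaged 26.3 and 33.9 in tumour 1, and 14.5 and 14.0 in tumour 2. Neutrophil markers averaged 0.883 with Arg1 and 2.47 without it in tumour 1, and 7.20 and 121 in tumour 2. The share of barcodes with 3 neutrophil-marker UMIs ran the other way in tumour 1, at 5.39% with Arg1 and 2.92% without it, and was 22.5% and 42.2% in tumour 2. The other 12 genes of the alternative activation list averaged 2.79 with Arg1 and 1.69 without it in tumour 1, and 1.99 and 0.853 in tumour 2.

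Across barcodes, the genes whose thinned counts followed Arg1 most closely were sought among 3225 genes found in at least 5% of barcodes of both tumours. Pearson's r is given over 1885 barcodes of tumour 1 and 649 of tumour 2 as a description, since barcodes of a library share their preparation. Fn1, the matrix protein fibronectin, came first with r of 0.37 in tumour 1 and 0.39 in tumour 2. Next were the chemokine Ccl9 (0.29 and 0.36), Tmsb10, which binds actin monomers (0.28 and 0.27), and Thbs1, the matrix glycoprotein thrombospondin 1 (0.23 and 0.32). The glycolytic enzymes Eno1 (0.23 and 0.24) and Tpi1 (0.27 and 0.22) followed. The cytokine Mif (0.36 and 0.22), the metallothionein Mt2 (0.29 and 0.22), the matrix protein Ecm1 (0.22 and 0.21) and the lysosomal protease Ctsl (0.35 and 0.20) completed the 10. Fn1 is one of the monocyte markers above, and Tpi1 one of the glycolysis genes. For Hmox1, the one other gene of the 10 found in 5% of barcodes of both tumours, no gene reached 0.2 in both.

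Lists that hold some of the 10 genes were read in the same fit. Of 18 alternative activation genes, 6 of them described above (Arg1, Retnla, Chil3, Mgl2, Ccl17 and Ccl22), 0 passed in either direction. In all, 5 were higher in both tumours and 9 lower in both, against 38.8% and 36% of all genes, with a median log2 difference of -0.73. Of 17 tested in the C1q gate, 7 were higher in both tumours and 6 lower in both, against 40.7% and 36.8% of all genes, and the median was 0.52, so the sign of the median turned between gates. Cd209a, a dendritic lectin, had 1.33 and 1.25 CPM in the tumours, against 103 CPM at 5 months. Of 15 classical activation genes, Nos2 included, 0 passed, 3 were higher in both tumours and 8 lower in both, against 38.8% and 36% of all genes, with a median of -0.33. Of 13 tested in the C1q gate, 1 was higher in both and 8 lower in both, against 40.7% and 36.8% of all genes. Their median was -0.26. Il12b, a subunit of IL-12 and IL-23, had 1.99 and 1.00 CPM in the tumours, against 29.8 CPM at 5 months. Il1b had 320.3 and 1969 CPM in tumours 1 and 2, against 501 CPM at 5 months, with the tumours on either side.

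The hypoxia and glycolysis list pointed one way in both gates. Of its 15 genes 0 passed, 13 were higher in both tumours and 0 lower in both, against 38.8% and 36% of all genes, and the median log2 difference was 1.44, against 0.06 over all genes. In the C1q gate 13 of 14 were higher in both tumours, against 40.7% of all genes, with a median of 1.52, against 0.05. Bnip3, a mitophagy receptor induced at low oxygen, had 125 and 133 CPM in the tumours, against 12.0 CPM at 5 months. Vegfa, the vascular growth factor, had 124 and 58.1 CPM in the tumours, against 13.01 CPM at 5 months. Tpi1 had 439 and 435 CPM in the tumours, against 81.2 CPM at 5 months. Genes raised by tissue dissociation did not share that direction. Of 10, 2 were higher in both tumours and 6 lower in both, against 38.8% and 36% of all genes, with a median of -0.39. In the C1q gate these counts were 1 and 6, against 40.7% and 36.8% of all genes, with a median of -1.01.

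Outside the gate, Arg1 had a second place at 5 months. The gate stood at 2.40 CPM there, against 66.6 CPM (57.5 to 76.8) in Epcam barcodes without Tyrobp, which carried 83.6% of the Arg1 UMIs in the kept barcodes of that library. The Epcam class had 18.9 and 20.7 CPM in tumours 1 and 2. In the thinned counts Arg1 was in 2.08% and 3.76% of Epcam barcodes in the tumours, against 6.44% at 5 months. The Tyrobp gate was higher than the Epcam class in both tumours and lower at 5 months. Lyz2, a lysozyme gene of myeloid cells, had 10.7 CPM in the 56 Epcam barcodes with Arg1 and 15.4 CPM in the 558 without it. Pgr, the progesterone receptor, had 29.5 CPM (14.8 to 52.9) with Arg1 and 1.62 CPM (0.443 to 4.16) without it. Lyz2 and Pgr were chosen after their values were seen.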

How the data were processed

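Single-cell 3' libraries of mouse mammary tissue and tumours were made with the 10x Chromium v2 kit, per the labels' protocols. The authors deposited UMI counts per gene and barcode, with gene and barcode names beside them. Cell Ranger and the mm10 (GRCm38) build are named in the submitters' processing notes, with the Cell Ranger version not given in the sources used here. Genome prefixes of gene names were removed, and 694 genes listed for the 5 months library alone were left out. Gate sums held 13535050, 3994742 and 2920098 UMIs in tumour 1, tumour 2 and 5 months. They were compared with edgeR 4.0.16 (filterByExpr, TMM, quasi-likelihood test) in R 4.3.3, with DESeq2 1.42.0 as an alternative. The biological coefficient of variation was 0.396 in the Tyrobp gate and 0.299 in the C1q gate. The fit was tested on simulated data. No doublet caller was run: barcodes with 2 or more UMIs of T, B, plasma, epithelial, fibroblast or endothelial genes (27.6%, 32.8% and 46.2% of the gate) were left out in an alternative. Free RNA was not modelled. Intervals and floors (3 UMIs) cover counting error only. The 10 genes and 21 lists were chosen with earlier results of these data known, so their counts are descriptions. All 10 genes are named, with list genes that a result turns on and the 10 genes most like Arg1. Scaling moved the median log2 difference of all genes between 0.05 and 0.11 in the Tyrobp gate and between 0.04 and 0.14 in the C1q gate. Alternatives covered the gate thresholds, cell filter, scaling, thinning and each tumour left out.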

Additional observations from a re-analysis of the deposited data

Results flagged for a closer look

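The 2 weeks library, which entered no test between libraries, held signal of some of these genes. Its 1165 Epcam barcodes without Tyrobp had 446 Arg1 UMIs, or 76.6 CPM (95% Poisson interval 69.7 to 84.1). Arg1 was in 23.6% of them before thinning and 12.1% after it. They also held 25 Nos2 UMIs (4.30 CPM) and 376 Hmox1 UMIs (64.6 CPM). Its 5 gate barcodes held 22 Ccl22 and 6 Ccl17 UMIs, each in 1 barcode, and 4 Hmox1 UMIs over 3 barcodes. Each of these counts is above the 3 UMIs that a count of 0 allows.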

How the results depend on the processing

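The main count of genes past an adjusted p of 0.05 was 0 in both gates. In the Tyrobp gate it was 922 of 16897 genes tested with no filter on low counts and 177 of 10911 with DESeq2. It was 18 of 9412 without mixed barcodes and 46 of 8569 without neutrophil, dendritic and NK barcodes. In the C1q gate it was 1 of 9259 genes with RLE factors, 425 of 15976 with no filter and 48 of 9259 with DESeq2. It was 33 of 8139 without mixed barcodes and 5 of 5656 without neutrophil, dendritic and NK barcodes. It was 2 of 9152 without the C1q barcodes that met the rule of the neutrophil class, and 2 of 9258 with at least 10 C1q UMIs. With no filter the calls held 8 of the 10 genes in the Tyrobp gate, not Il10 or Hmox1, and Arg1, Chil3, Il10, Mgl2 and Retnla in the C1q gate. DESeq2 called Arg1, Ccl17, Ccl22 and Mgl2 in the Tyrobp gate and Arg1 in the C1q gate. Arg1 and Ccl17 were called in the Tyrobp gate without neutrophil, dendritic and NK barcodes, and Arg1 in the C1q gate without mixed barcodes. Outside the dendritic class, 133 Ccl17 UMIs at 5 months came from 1 barcode. Without neutrophil, dendritic and NK barcodes, 121 barcodes of tumour 2 were left in the Tyrobp gate and 85 in the C1q gate. The log2 difference of Ccl17 in the Tyrobp gate was -0.57 with Epcam not used. The 4 genes more frequent in Arg1-positive barcodes of both tumours became 2 at 1000 UMIs, 2 when positive meant 2 UMIs, 2 with at least 6 Tyrobp UMIs, 2 without mixed barcodes, 2 without neutrophil, dendritic and NK barcodes, and 1 in the C1q gate. The log2 sign of Hmox1 turned in the Tyrobp gate to -0.22 with at least 6 Tyrobp UMIs, -0.11 without mixed barcodes, -0.40 without neutrophil, dendritic and NK barcodes and -0.043 when Epcam was not used, with a range of -0.35 to 0.38 when each tumour was left out. In the C1q gate Hmox1 turned to 0.045 with library size alone, 0.031 with no filter and 0.00054 without mixed barcodes, with a range of -0.48 to 0.28 when each tumour was left out. Chil3 in the Tyrobp gate was -2.77 without tumour replicate 2 and 3.41 without tumour replicate 1, and with at least 6 Tyrobp UMIs in the C1q gate Retnla turned to 1.79 and Ccl22 to 2.06. The cause of these moves was not tested. The neutrophil class and the use of Epcam were examined after the data were seen. Leaving out a tumour left 1 library against 1 and so gave values with no test. No paired analysis was possible, because there was 1 library at 5 months and the labels do not give the mice behind each library. Depth limits Nos2, Gpnmb and Ccl17 in the C1q gate at 5 months, which held 142 barcodes.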
